A study of Mus musculus with 2 samples.

Results

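The proximal part of mouse chromosome 12 was examined as a run of probes read together in both lines, chr12:3102541-49267874 in mm9. Its limits were chosen on the H19Δ2 array, so its high ratio in H19Δ2 is what selected it and is given here as a description with no test. The stretch held 2324 of the 170305 probes on the array, 32.5% of the probes of chromosome 12 and 39.1% of the length that its probes span. It began at the first probe of the chromosome, on the side of the centromere, and measured 46.2 Mb.

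The DNA came from androgenetic haploid embryonic stem cells (AG-haESCs), a mouse stem cell type whose genome is paternal only. The parental line AGH-OG-3 carries an Oct4-eGFP transgene and was the reference. H19Δ1 and H19Δ2 were both made from it by CRISPR-Cas9-assisted removal of H19 with its imprinting control region, and both therefore share the transgene and the deletion; per the study's methods the targeting also left a loxP-flanked PGK-neo cassette, removed later in cells of H19Δ1. Each was grown from a picked colony and sorted repeatedly for haploid cells, so each line stands for 1 clone, and each was hybridised on 1 array. All cells grew with serum, LIF, CHIR99021 and PD0325901, and feeder cells were depleted by a short plating before DNA was taken. H19Δ DNA was in the Cy5 channel and AGH-OG-3 DNA in the Cy3 channel on both arrays, with no dye swap, and neither array has a replicate.

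Comparative genomic hybridisation measures how much DNA of a region one sample holds relative to another. A log2 ratio of 0 means the same share of the DNA as in the reference, and a value above 0 means a larger share. The ratio is an average over all cells that gave DNA, so a change carried by some of the cells and a change carried by all of them are both read as 1 level. A haploid genome carries a single copy of each autosome, and embryonic stem cells in culture are known to gain and lose chromosome segments. Chromosome 12 of the mouse is acrocentric, with its centromere at the start of the coordinate scale.

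The files carry no gene names for the probes, so gene content could be read only as an order from RefSeq on GRCm38.p6, a later build whose coordinates were not used. Of 73 genes named for proximal chromosome 12, 71 were found on chromosome 12 in that table, among 679 protein-coding genes. Counted from the centromere, they opened with Rab10 in position 2, a small GTPase of membrane traffic, and Kif3c in position 3, a kinesin motor subunit. Asxl2, a Polycomb-associated chromatin regulator, was in position 4 and Dnmt3a, a de novo DNA methyltransferase, in position 6. Pomc, the precursor of melanocortin peptides, followed in position 7, and Apob, the structural protein of low-density lipoprotein, in position 26. Mycn, a MYC family transcription factor, stood in position 48 beside the RNA helicase gene Ddx1 in position 49. Odc1, the rate-limiting enzyme of polyamine synthesis, was in position 64, and Rrm2, a ribonucleotide reductase subunit, in position 111.

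Transcription factors of development were spread along the rest of the order. Id2, an inhibitor of basic helix-loop-helix factors, was in position 114, Sox11 in position 118 and Twist1, a regulator of mesenchyme, in position 157. Ahr, the aryl hydrocarbon receptor, was in position 161, Meox2, a homeobox gene of the somites, in position 170 and Etv1, an ETS factor, in position 173. Nova1, a neuronal splicing regulator in position 186, was the last of the listed genes in the order. All 10 genes listed under DNA methylation, chromatin and genome maintenance and all 14 listed under developmental transcription factors were on the chromosome. So were all 14 listed under hormones, receptors and signalling and 9 of 11 listed under metabolism and nucleotide supply. The genes had been listed as proximal chromosome 12 genes, so these counts describe the lists and not the content of the gain. Hadha and Hadhb, subunits of the mitochondrial trifunctional protein, were not on chromosome 12 in that table. No gene was assigned to a probe, a step or either side of the border, and no gene has a value of its own here.

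The arrays themselves were alike. After the log2 ratios were centred on the median of all autosomal probes, the noise between neighbouring probes was 0.121 in H19Δ1 and 0.119 in H19Δ2. On distal chromosome 7, 2 neighbouring probes were below -2 in both lines. The one at chr7:149761403-149761462 read -3.67 in H19Δ1 and -3.70 in H19Δ2, and the next was not above background in the Cy5 channel of either array. No probe of the proximal chromosome 12 stretch was saturated or below background. After flagged spots were left out, 2323 of its probes were read on each array and 2322 on both.

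In H19Δ2 the stretch lay far above the reference, and in H19Δ1 it lay at the level of the reference. The mean log2 ratio in H19Δ1 was -0.0062 ± 0.12 (SD over 2323 probes), a linear ratio of 0.996. In H19Δ2 it was 0.55 ± 0.13 (SD over 2323 probes), a linear ratio of 1.47. The middle 50% of the probes ran from -0.085 to 0.075 in H19Δ1 and from 0.47 to 0.64 in H19Δ2, and these ranges did not overlap.

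Probe by probe, H19Δ2 exceeded H19Δ1 by 0.56 ± 0.15 (SD, n = 2322 probes). It was higher at 2318 of 2322 probes, and 4 probes went the other way. Nothing is read from that count, because H19Δ2 values chose the stretch. The spread around the mean in H19Δ2 was close to the spread in H19Δ1 and to the noise between neighbours, which within the stretch was 0.117 in H19Δ1 and 0.124 in H19Δ2. These SDs describe probes on 1 array, not repeated cultures or repeated hybridisations.

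**Figure D1:**
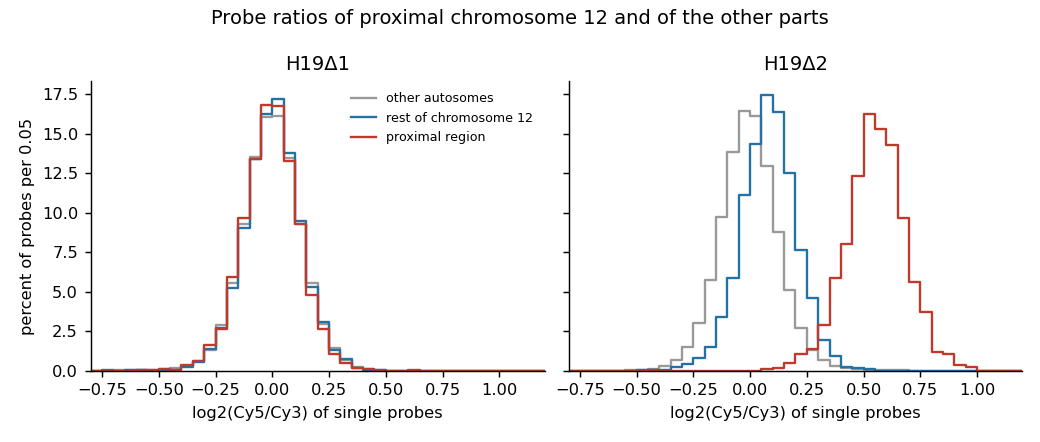
Histograms of the log2 ratio (H19Δ line over AGH-OG-3) per probe, for H19Δ1 and H19Δ2, with the proximal stretch of chromosome 12, the rest of chromosome 12 and the other autosomes drawn as the share of probes in each. In H19Δ1 the 3 curves lie on each other, and in H19Δ2 the proximal stretch is moved to a mean of 0.55 while the rest of chromosome 12 is moved to 0.083.

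A ratio of at least 0.3 was used to count a probe as gained. Over all autosomal probes with a value, 1.17% were past it in H19Δ1 and 2.84% in H19Δ2. These shares include the probes of the stretch itself, which raise the H19Δ2 value. On the autosomes other than chromosome 12 the shares were 1.18% in H19Δ1 and 1.41% in H19Δ2. Within the stretch, 19 of 2323 probes were past it in H19Δ1, which is 0.818%. That is near the 1.17% over all autosomal probes, which lies within the 95% Wilson interval of 0.524% to 1.27%. In H19Δ2, 2247 of 2323 probes were past it, which is 96.7%, and nothing is read from that count because H19Δ2 values chose the stretch. The 76 probes of H19Δ2 under 0.3 were nearly all above the reference, since 2322 of 2323 were at or above 0.

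Along its length the gain in H19Δ2 was close to level. The stretch was cut into bins of 1 Mb, and 40 bins with at least 20 probes were kept. Bin medians ran from 0.49 in the bin starting at 47 Mb to 0.70 in the bin starting at 5 Mb, with an SD of 0.036 between bins. In H19Δ1 the same bins ran from -0.069 at 13 Mb to 0.038 at 39 Mb, with an SD of 0.025. All 40 bins were higher in H19Δ2, which follows from the choice of the stretch on that line. In H19Δ2, 36 of the 40 lay within 0.05 of the median of these bins.

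The levels of the bins stood apart from the other autosomes in H19Δ2, the line on which the stretch was chosen. Of 2257 bins on the other 18 autosomes, 1 was at or above the lowest bin of the stretch, and it lay on chromosome 2. Coverage was not even: 3 bins had no probe and 3, from 18 to 21 Mb, had fewer than 20, while the bin starting at 49 Mb was short because the stretch ends in it. The widest spaces without a probe were 3.57 Mb, between 21568617 and 25135356, then 0.945 Mb and 853 kb. A step inside such a space would not have been seen.

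**Figure D2:**
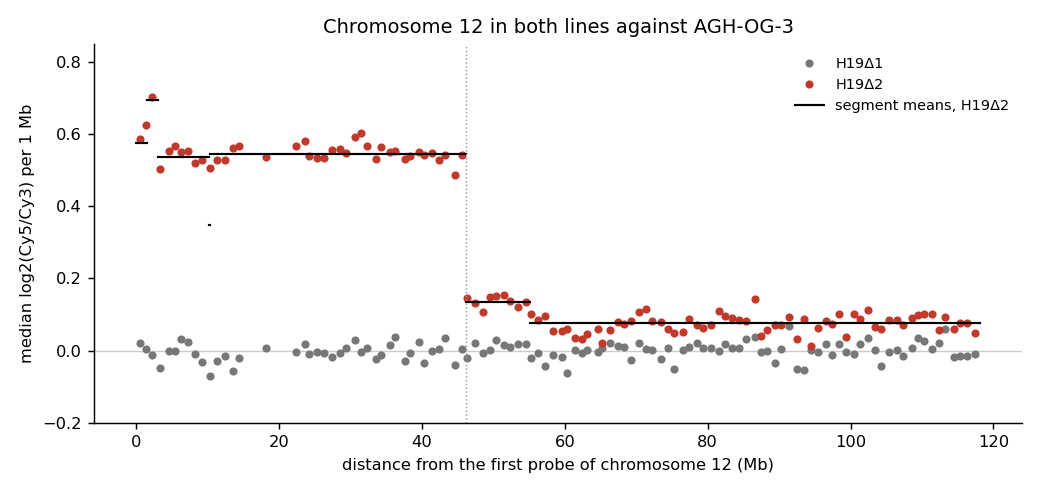
Median log2 ratio per 1 Mb bin along chromosome 12 against distance from its first probe, for H19Δ1 and H19Δ2, with 1 point per bin of at least 20 probes, black lines for the means of the H19Δ2 levels and a dotted line at the distal border. H19Δ2 stays between 0.49 and 0.70 across the proximal stretch and then drops to between 0.013 and 0.16 over the rest of the chromosome, while H19Δ1 stays near 0 throughout.

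The difference between the arrays was in the H19Δ channel. The median Cy5 intensity of the stretch was 1015 for H19Δ1 and 1496 for H19Δ2. The median Cy3 intensity, from the shared reference, was 1008 beside H19Δ1 and 1001 beside H19Δ2. Set against the other autosomes of the same channel, Cy5 was 1.47-fold and Cy3 0.990-fold on the H19Δ2 array relative to the H19Δ1 array. The reference channel therefore moved by -0.014 on the log2 scale where the line's own channel moved by 0.55.

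**Figure D3:**
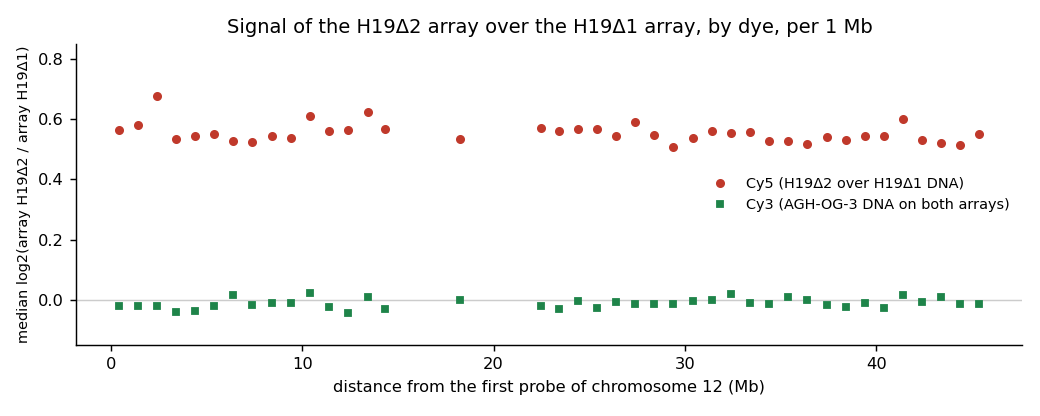
Log2 ratio of the H19Δ2 array over the H19Δ1 array per 1 Mb bin of the proximal stretch of chromosome 12, drawn separately for Cy5 (the H19Δ line) and Cy3 (AGH-OG-3), each relative to the other autosomes, against distance from the first probe. Cy5 lies around 0.55 and Cy3 around -0.014 across the stretch.

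Within the gain, 4 inner boundaries were found in H19Δ2, dividing it into 5 levels. The first, chr12:3102541-4634922, had a mean of 0.57 ± 0.14 (SD, 142 probes). The second, chr12:4648434-6104440, was the highest at 0.69 ± 0.13 (SD, 113 probes), a linear ratio of 1.62. The next, chr12:6113521-13271612, returned to 0.54 ± 0.12 (SD, 366 probes). After a short low interval, the last and longest, chr12:13484500-49267874, held 0.55 ± 0.13 (SD, 1684 probes). The same method also divided H19Δ1 inside the stretch, where that line was at the level of the reference. It set 4 probes of the low interval apart, as given below. It also cut H19Δ1 between 31593171 and 31611257, where the mean went from -0.019 to 0.0018.

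The higher step rose by 0.12 at its proximal side and fell by 0.16 at its distal side. Its probes ranged from 0.39 to 0.99 in H19Δ2, and 97 of 113 were above 0.54, the mean of the 100 probes that flank it. In H19Δ1 the same probes had a mean of 0.0047 ± 0.11, which is 0.025 above their flanks, with 66 of 113 above the flank mean. The difference between the lines over this step was 0.69, against 0.56 over the whole stretch. The step was found from H19Δ2 values, so its height there is a description. It was seen in the Cy5 channel, where the H19Δ2 array exceeded the H19Δ1 array by 0.68, while Cy3 was at -0.018.

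**Figure D4:**
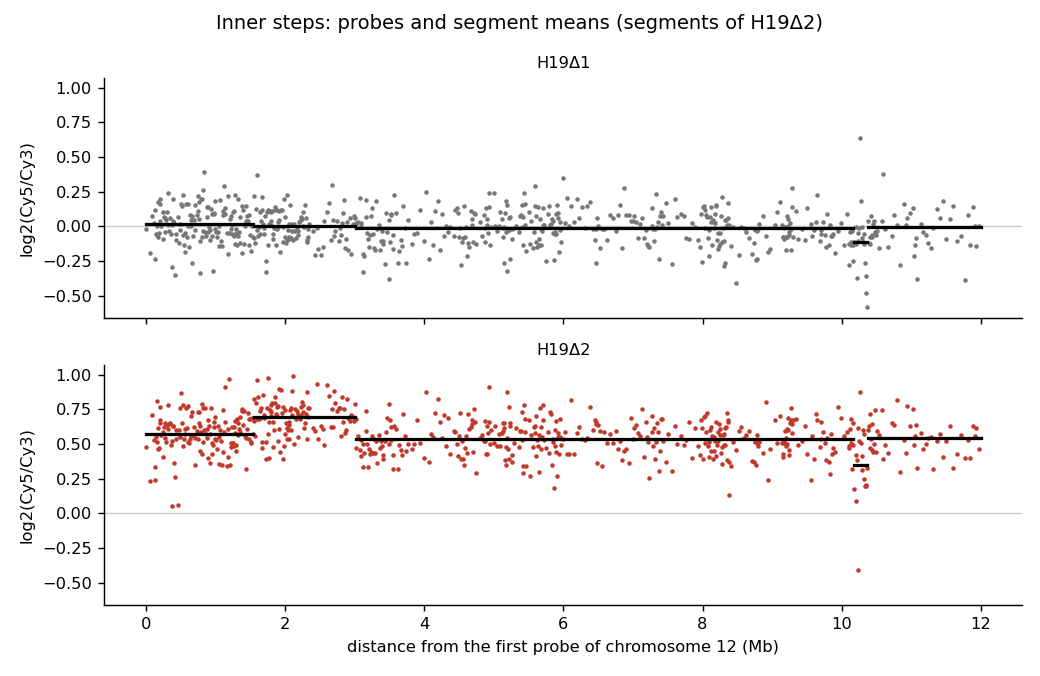
Log2 ratio per probe in H19Δ1 and H19Δ2 over the first part of chromosome 12, against distance from the first probe, with a black line for each line's mean over the levels found in H19Δ2. The higher step at 0.69 and the short low interval at 0.35 stand out from levels of 0.54 to 0.57 in H19Δ2. The mean of H19Δ1 over each level other than the short interval stays near 0. That interval holds 1 high probe of H19Δ1, 4 neighbouring low probes at its distal end and a further low probe that begins at 13320854.

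The low interval, chr12:13287399-13472545, was 185 kb long and had a mean of 0.35 ± 0.27 (SD, 18 probes) in H19Δ2 and -0.11 ± 0.27 in H19Δ1. In H19Δ2 14 of the 18 probes were below the mean of their flanks. The interval was found from H19Δ2 values, so that count is a description. Its SD was wider than that of any other level in the stretch, and it held both the lowest H19Δ2 probe and a probe that was high in both lines. The lowest probe, chr12:13342989-13343048, read -0.41 in H19Δ2 and -0.11 in H19Δ1. Its Cy3 intensity was 369 beside H19Δ2 and 171 beside H19Δ1, and its Cy5 intensity was 280 in H19Δ2 and 160 in H19Δ1. In the Cy5 channel the interval as a whole was 0.53 higher on the H19Δ2 array, against 0.55 over the stretch, and in Cy3 it was 0.030 higher. Over its last 4 probes these values were 0.68 and 0.053. Comparing the arrays cancels any low level that both share, so these values cannot show which channel carries the low interval. With the lowest probe left out, the mean of the interval was 0.39 ± 0.21 (SD, 17 probes), and its boundaries were no longer found. The high probe, chr12:13373599-13373658, read 0.64 in H19Δ1 and 0.87 in H19Δ2.

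The distal end of the low interval was low in both lines. Its last 4 probes, chr12:13437225-13472545, were also set apart as a level of their own when H19Δ1 was divided into levels. In H19Δ1 they read -0.27, -0.48, -0.36 and -0.58, with a mean of -0.42 ± 0.14. In H19Δ2 they read 0.20, 0.19, 0.20 and 0.33, with a mean of 0.23 ± 0.064. All 4 were below the flanks in both lines, by 0.39 on average in H19Δ1 and by 0.28 in H19Δ2. They were picked as the lowest H19Δ1 level in the stretch and lie inside its lowest H19Δ2 level. Nothing is therefore read from their place below the flanks in either line. The difference between the lines over the 4 probes was 0.65, of the size seen over the whole stretch. The other 14 probes of the low interval had a mean of -0.025 in H19Δ1 and 0.38 in H19Δ2. Among them, the probe that begins at 13320854 was also low in H19Δ1, at -0.37, and read 0.38 in H19Δ2. Both arrays share the AGH-OG-3 DNA and the same 4 probes, and the part of either in these low values was not tested.

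At the proximal end, no probe preceded the gain. The first 3 probes of the chromosome read 0.48, 0.23 and 0.71 in H19Δ2 and -0.020, -0.19 and 0.072 in H19Δ1. The gain was present from the first position that the array could read, and where it starts on the side of the centromere cannot be told from these probes.

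With the main processing the distal border was a single drop in H19Δ2. The last 3 probes inside began at 49199030, 49224557 and 49267815 and read 0.52, 0.28 and 0.46 in H19Δ2. The first 3 beyond began at 49303600, 49339871 and 49362712 and read 0.041, -0.054 and 0.088. The same 6 probes read -0.089, 0.22, -0.10, -0.034, -0.090 and 0.088 in H19Δ1, with no step. Of the 3 probes inside, the one at 49224557 differed least between the lines. The space between the last probe inside and the first beyond was 35.7 kb. Processing also limits how closely the border could be placed. Some alternatives put the first probe beyond at 49163811, 49224557 or 49267815, shifts of -140, -79 and -36 kb.

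Over 10 probes on each side, H19Δ2 went from 0.53 ± 0.13 to 0.0073 ± 0.082. Over 50 probes on each side it went from 0.53 ± 0.099 to 0.11 ± 0.12, and over 200 from 0.53 ± 0.11 to 0.13 ± 0.11. The drop was thus 0.52, 0.42 and 0.41, and the same counts of probes in H19Δ1 gave drops of 0.021, -0.0017 and -0.0036. The 10 probes next to the border, which span 287 kb, lay lower in H19Δ2 than the 40 that followed, which had a mean of 0.14 ± 0.11.

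**Figure D5:**
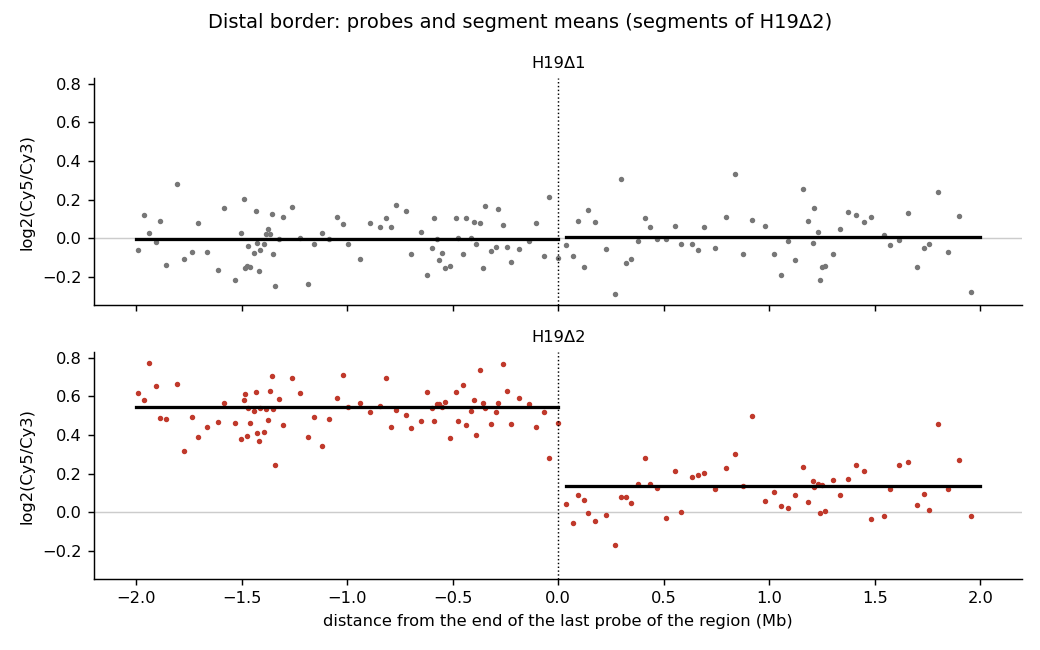
Log2 ratio per probe in H19Δ1 and H19Δ2 around the distal border, against distance from the end of the last probe of the gained stretch, with a dotted line there and a black line for each line's mean over the levels on either side. H19Δ2 falls from 0.53 over the last 10 probes inside to 0.0073 over the first 10 beyond and then lies near 0.13, and H19Δ1 shows no step.

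Beyond the border H19Δ2 did not return fully to the level of the other autosomes. The level from 49303600 to 58206273 was 0.13 ± 0.12 (SD, 589 probes) over 8.90 Mb. From 58213332 to the last probe of the chromosome it was 0.075 ± 0.12 (SD, 4231 probes), a further fall of 0.059. In H19Δ1 the same levels were 0.0073 and 0.00091. In windows of 50 probes, H19Δ2 ran from 0.11 to 0.16 over the first 12 windows, and the following 4 read 0.094, 0.087, 0.095 and 0.045.

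The whole of chromosome 12 beyond the border had a mean of 0.083 ± 0.12 in H19Δ2 (SD over probes), a linear ratio of 1.06, and 0.0017 ± 0.12 in H19Δ1. Medians of the other 18 autosomes ran from -0.042 to 0.047 in H19Δ2, and 0 of 18 reached the 0.084 of the rest of chromosome 12. In H19Δ1 10 of 18 were at or above the median of the rest of chromosome 12. Its share of probes past 0.3 was 3.46% in H19Δ2 and 0.996% in H19Δ1, against 1.41% and 1.18% on the other autosomes.

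Dim probes gave a lower value than bright ones in H19Δ2. Probes of the stretch were put in 5 classes of about equal size by their Cy3 intensity on the H19Δ1 array, whose medians ran from 374 to 2425. The mean in H19Δ2 was 0.51 ± 0.16 in the dimmest class, then 0.53, 0.56 and 0.57, and 0.58 ± 0.12 in the brightest. In H19Δ1 the classes ran from -0.018 to 0.0027, and on the other autosomes of H19Δ2 from -0.026 in the dimmest to 0.010 in the brightest. The higher step exceeded the rest of the stretch in each of the 5 classes, at 0.65 against 0.51 in the dimmest and 0.69 against 0.57 in the brightest. The step was picked as the highest level on these same H19Δ2 values, so nothing is read from its excess in each class.

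Single probes far from the level were few. Besides the lowest probe already given, the lowest in H19Δ2 began at 3470067 and 3557752, with 0.056 and 0.061. The highest in H19Δ2 began at 5218482 and 45142283, both at 0.99, and the former lies in the higher step. In H19Δ1 the lowest was 13472486 at -0.58, the last of the 4 low probes, followed by 27299855 at -0.54. Across the probes of the stretch the ratios of the lines correlated with r = 0.35, against 0.40 over the rest of chromosome 12. The arrays share the reference DNA and the probes, so these correlations are given as a description.

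The stretch was set beside a pair of other gained stretches of H19Δ2, on chromosomes 6 and 2. The paper lists further stretches with a raised ratio in H19Δ2, which were not read here. At chr6:3131098-3571947 the mean was 0.56 ± 0.12 in H19Δ2 and 0.0072 ± 0.11 in H19Δ1 (SD, 27 probes), a difference of 0.55 ± 0.14. A stretch on chromosome 2, chr2:112290454-113249742, was at 0.64 ± 0.11 in H19Δ2 but at -0.26 ± 0.11 in H19Δ1 (SD, 83 probes), a difference of 0.90. The stretch on chromosome 2 was therefore below the reference in H19Δ1, whereas those on chromosomes 6 and 12 were near it. All 3 were chosen on H19Δ2 values, and no difference between them was tested.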

How the data were processed

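DNA of H19Δ1 and H19Δ2 (Cy5) was hybridised with AGH-OG-3 DNA (Cy3) on Agilent 4×180K mouse arrays, 1 array per line, both on 1 slide and in 1 scan. Per the file headers, the authors' scanner files came from Feature Extraction 11.5.1.1, whereas the submitters' processing notes give 10.10. The deposited processed intensity of each channel was background-subtracted and dye-normalised by that software, by a method not given in the sources used here. The deposited log10 ratio of Cy5 over Cy3, also held in the authors' value table, served as an alternative. Probe positions are mm9. 0 columns were left without a sample.

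Log2 ratios were computed from the deposited processed intensities without control or flagged spots, with a mean taken over the spots of a probe, and the median over all autosomal probes was subtracted per array (shifts of 0.0113 and 0.00798). Levels were found by a penalised least-squares segmentation, tried on simulated chromosomes with a raised step in independent normal noise. The simulations held no outlying probe and no short dip, so they do not bear on the low interval. Spreads are SDs over probes. With 1 array per line there is no replicate error and no p-value, and the number of arrays limits the precision. Genes were ordered by RefSeq on GRCm38.p6. Named probes and steps were those at the boundaries and extremes of the stretch. The region, the gene lists and the comparisons were chosen with earlier results of these data known. Alternatives were other centring, normexp background correction in limma 3.58.1, other thresholds, bins, probe filters and penalties. Python 3.11.15, numpy 2.4.6, pandas 2.3.3 and R 4.3.3 were used.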

Additional observations from a re-analysis of the deposited data

Results flagged for a closer look

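Some intervals inside the gained stretch lay below the reference in H19Δ1 and above it in H19Δ2, on each side by more than the spread between bins of the other autosomes. The H19Δ2 side follows from the choice of the stretch on that line. In H19Δ1 the spread was 1 SD between bins, 0.039, so a bin could pass it narrowly. The short intervals hold fewer probes than such bins, so that spread is not matched to them. Each line has 1 array, and the differences were not tested. In the low interval chr12:13287399-13472545 the means were -0.113 and 0.348, a difference of 0.461. In its last 4 probes, chr12:13437225-13472545, they were -0.422 and 0.231, a difference of 0.652. The 1 Mb bin starting at 6 Mb had medians of -0.0486 and 0.504, a difference of 0.553. The bin starting at 13 Mb, which holds the low interval, had -0.069 and 0.507, a difference of 0.576. The bin starting at 16 Mb had -0.0552 and 0.562, a difference of 0.617. The bin starting at 47 Mb had -0.0396 and 0.486, a difference of 0.525.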

How the results depend on the processing

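Of 134 values under alternatives, 115 stayed within a tolerance, 17 moved by more and 2 reversed. The tolerance was the spread between bins, the counting interval, 10 probes of the border or 1.5 times a count of levels. Some alternatives could hardly differ, so the 115 is no measure of robustness. The deposited log ratio and the value table gave the main level, 0.552 in H19Δ2. No probe of the stretch was below background, and 2 of its spots in H19Δ1 and 3 in H19Δ2 were flagged. Centred on the rest of chromosome 12, the stretch was at 0.468 in H19Δ2 and 0.477 above H19Δ1, 90.5% of its H19Δ2 probes were past 0.3, and the rest of the chromosome reversed to -0.00136 in H19Δ2 and -8.2e-05 for the difference, which follows from that centring. With normexp background correction, 92.6% of H19Δ2 and 2.67% of H19Δ1 probes were past 0.3, the highest H19Δ2 bin was 0.77 and the border moved to 49163811. The higher step then ran from 4407934 to 6144111, and the low interval from 13287399 to 13343048, at 0.14 over 6 probes. Of 11 alternatives, 8 kept the inner boundary at 4648434 and 10 that at 6113521. The boundary at 13287399 was kept in 8 and that at 13484500 in 7. A threshold of 0.2 gave 99.1% and 4.52%, and 0.5 gave 67.6% and 0.043%. Bins of 2 Mb gave 0.66 as the highest H19Δ2 bin, and bins of 0.5 Mb gave -0.11 as the lowest H19Δ1 bin. The 5 levels became 7 with each spot on its own, 7 on the difference between the lines, and 3 or 2 with penalties of 4 or 8. With the lowest probe of the low interval left out, chosen after seeing the data, 3 levels remained and the low interval went from -0.21 to -0.16 relative to the rest of the stretch. The cause of the other moves was not tested. The border stayed at 49303600 in 9 of 13 alternatives. No paired analysis was possible because there is 1 array for each line.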

Other observations

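When the difference between the lines was divided into levels in place of the H19Δ2 ratio, the higher step ran from 4566693 to 6104440, with a mean difference of 0.69 ± 0.13 (SD, 121 probes). A pair of short intervals with a smaller difference appeared. One, chr12:13342989-13398247, had a difference of 0.27 ± 0.30 over 6 probes, and holds the lowest H19Δ2 probe and the probe that was high in both lines. The other, chr12:20713405-21118753, had a difference of 0.28 ± 0.14 over 5 probes, with 0.15 in H19Δ1 and 0.43 in H19Δ2, and it begins just beyond the space of 0.945 Mb without a probe.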
